A study of Mus musculus with 18 samples.

Results

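Transcripts of 9 genes, the CCN genes Ccn1 to Ccn5 and the thrombospondin genes Thbs1 to Thbs4, were measured in Thy1+ cells sorted from mouse hearts. The genes were chosen by name, by matching the Ensembl identifiers of the count tables to mouse symbols, and all 9 were found among 53342 identifiers. Ccn1 to Ccn5 were formerly called Cyr61, Ctgf, Nov, Wisp1 and Wisp2. The donors were mice of the strains C57BL/6, C3H/HeJ or KK/HlJ that received saline (sham) or isoproterenol (ISO), which stimulates beta-adrenergic receptors and injures the heart when infused. ISO cells were taken 14 or 21 days after a pump was implanted, and the sham labels name no day, so the sham libraries of a strain were the reference at either time. With 2 libraries for each of 9 groups there were 18 in all. Thy1 is carried on the surface of many cardiac fibroblasts, and the labels call the sorted population Thy1+ HE or Thy1+HE- without spelling out HE. No transgene or deletion is named, and neither the age of the mice nor whether a library was 1 animal or a pool is stated. A p-value here therefore reflects only how far these libraries differ, and that spread may be technical. The question of the series is how genetic background alters the fibroblast response to ISO injury.

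CCN proteins and thrombospondins are secreted matricellular proteins: they sit in the matrix and bind integrins, proteoglycans and growth factors rather than bearing load. Ccn1 and Ccn2 are textbook targets of YAP/TAZ with TEAD factors and of serum and mechanical stimulation, and Ccn2 is also induced by transforming growth factor beta (TGF-beta) in fibroblasts. Thrombospondin 1 can activate latent TGF-beta and limits vessel growth. In the heart, both families are best known from wound repair and fibrosis.

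RefSeq promoter windows on GRCm38.p6 were at hand for 4 of the 9 genes: Ccn1, Thbs2, Thbs3 and Thbs4. Each window was read over the 250 bases before the annotated start site. Ccn1 and Thbs4 are printed because they hold the TEAD motif and lie far apart in their ISO values below. Capitals mark the motif, GGAATG or its reverse complement CATTCC, and the rest is in lower case.
Ccn1, chr3:145649986-145650235, minus strand: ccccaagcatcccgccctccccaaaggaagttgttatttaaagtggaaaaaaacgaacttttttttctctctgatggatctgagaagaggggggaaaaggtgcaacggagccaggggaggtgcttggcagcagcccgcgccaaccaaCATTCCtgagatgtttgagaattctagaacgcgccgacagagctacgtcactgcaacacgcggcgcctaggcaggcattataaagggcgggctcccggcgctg
Thbs4, chr13:92794819-92795068, minus strand: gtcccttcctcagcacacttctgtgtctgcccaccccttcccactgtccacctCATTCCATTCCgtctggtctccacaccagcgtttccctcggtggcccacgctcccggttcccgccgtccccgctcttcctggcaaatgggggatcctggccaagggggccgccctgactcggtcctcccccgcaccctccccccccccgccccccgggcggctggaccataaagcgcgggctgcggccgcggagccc
The Ccn1 window held 1 match, beginning 103 bases before the start site. The Thbs4 window held 2 matches that overlap by 1 base, beginning 197 and 192 bases before it. The windows of Thbs2 and Thbs3 held none. Of all 32817 windows of this length, 12.6% held the motif on either strand. An AP-1 motif, TGANTCA, was found in 6.75% of all windows and the CArG box of serum response factor in 1.47%, and neither was in the 4 windows. These letters are a description of the windows and not evidence that a factor binds there.

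Total counts ran from 7230741 to 26280685 per library. All 8 genes of a fibroblast marker list (Pdgfra, Tcf21, Col1a1, Col1a2, Dcn, Lum, Gsn, Dpt) were detected in each library. Their summed level was 86310 to 132400 CPM (counts scaled to library size) in sham and 71890 to 123300 CPM in ISO. Gsn had the largest part of this sum, with a median of 78300 CPM in sham and 65400 CPM in ISO. Pdgfra had medians of 546 and 593 CPM, and Tcf21 of 356 and 333 CPM, in the same order. Of 9 macrophage markers 8 were detected, summing to 12.3 to 23.2 CPM in sham and 7.53 to 217.9 CPM in ISO, and Itgam was at 0 in all 18 libraries. Endothelial markers, 9 of 9 detected, had sums of 192.5 to 621.2 CPM with saline and 221 to 1478 CPM with ISO, and Cdh5 and Kdr were each at 0 in 1 library. Cardiomyocyte markers, 8 of 8 detected, summed to 105.1 to 217.8 CPM in sham and 59.99 to 329 CPM in ISO. The highest macrophage, endothelial and cardiomyocyte sums were all in C3H/HeJ ISO day 21 replicate 1. All 12 pericyte and smooth muscle markers were detected, with a median sum of 3110 CPM in sham (1846 to 6498) and 2114 CPM in ISO (1383 to 4678). Their part in the results below was not tested, and in bulk RNA fewer cells of a type and less RNA per cell cannot be told apart. A group of 4 libraries had the lowest median correlations with the others: KK/HlJ ISO day 14 replicate 1 at 0.811, C3H/HeJ sham replicate 1 at 0.84, KK/HlJ sham replicate 1 at 0.845 and KK/HlJ ISO day 21 replicate 1 at 0.847, against 0.862 to 0.912 elsewhere. They are called the 4 divergent libraries below, and the mean over strains and days of each gene with counts in every group is also given without them.

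Levels of different genes were set side by side only per kilobase of exon. CPM uses library sizes scaled by edgeR's TMM factors. In the 6 sham libraries Ccn1, an immediate-early gene of the CCN family, stood highest at 437 ± 94.4 CPM per kb (SD, n = 6). Ccn2 followed at 145 ± 68.5, Thbs1 at 97.5 ± 33.5, Thbs2 at 59.6 ± 26.2, Ccn5 at 59 ± 20.8 and Thbs3 at 36.2 ± 9.82 CPM per kb (SD, n = 6). The lowest were Ccn3 at 16.9 ± 5.27, Thbs4 at 4.7 ± 2.4 and Ccn4 at 0.17 ± 0.275 CPM per kb (SD, n = 6). Only at 2 places in this order did the sham ranges not overlap: all 6 Ccn1 values lay above all 6 Ccn2 values, and all 6 Thbs3 values above all 6 Ccn3 values. In the 12 ISO libraries the order of medians kept Ccn1 (420 CPM per kb) and Ccn2 (267) at the top, and Ccn5 (126) came next, ahead of Thbs1 (100) and Thbs2 (68.3). Ccn4, the least abundant, had a median of 0.477 CPM per kb with ISO.

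**Figure D1:**
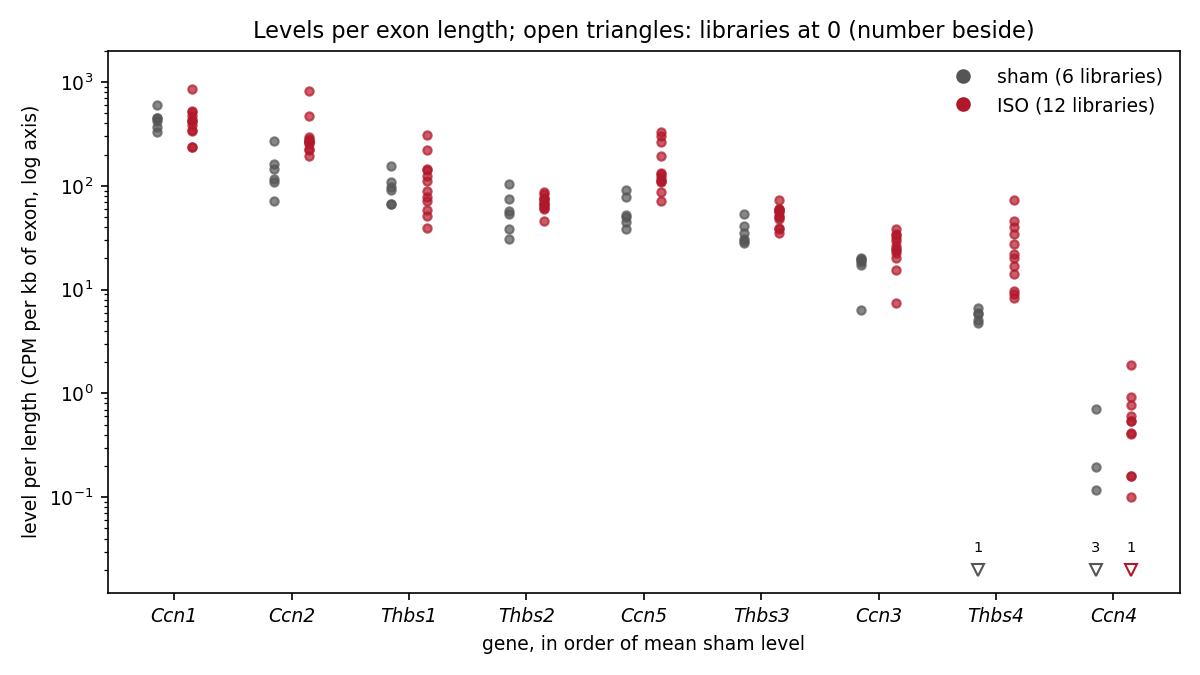
Level of each gene per kilobase of exon (log axis, CPM per kb) in 6 sham libraries (grey) and 12 ISO libraries (red), genes in order of the mean sham level. Each point is 1 library and open triangles mark libraries at 0, with their number; Ccn1 is highest in both conditions and Ccn4 lowest.

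Comparing ISO with sham within strains and averaging over the 3 strains and both days, Ccn5, Ccn2 and Thbs4 were the members with the largest differences among those with counts in every group. None of the 9 genes passed an adjusted p of 0.05 in edgeR's quasi-likelihood test, where 0.0571% of the 15762 genes tested passed in either direction. All 9 had passed the filter on low counts. At an unadjusted p under 0.05, 6 of 9 were higher with ISO (Ccn2, Ccn3, Ccn4, Ccn5, Thbs3 and Thbs4) and none was lower, against 3.21% of genes higher and 3.48% lower. DESeq2 called 3 of the 9 (Ccn2, Ccn5 and Thbs4) and 0.763% of the genes it gave an adjusted p, and limma voom with quality weights called 0 and 0.0634% of genes. The number of genes called in the main test, 9, ranged from 2 without C57BL/6 sham replicate 1 to 109 without C3H/HeJ sham replicate 2, so this yardstick itself rests on single libraries. All 12 ISO libraries lay above both sham libraries of their strain for 2 of the 9 genes, Ccn5 and Thbs4, a pattern that 0.102% of genes tested showed. Ccn2, Ccn3 and Thbs3 each did so in 10 of 12 libraries. Without the 4 divergent libraries, Ccn2, Ccn5 and Thbs4 lay above their sham libraries in all 10 ISO libraries left, as did 0.628% of genes, with fewer sham libraries to exceed.

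**Figure D2:**
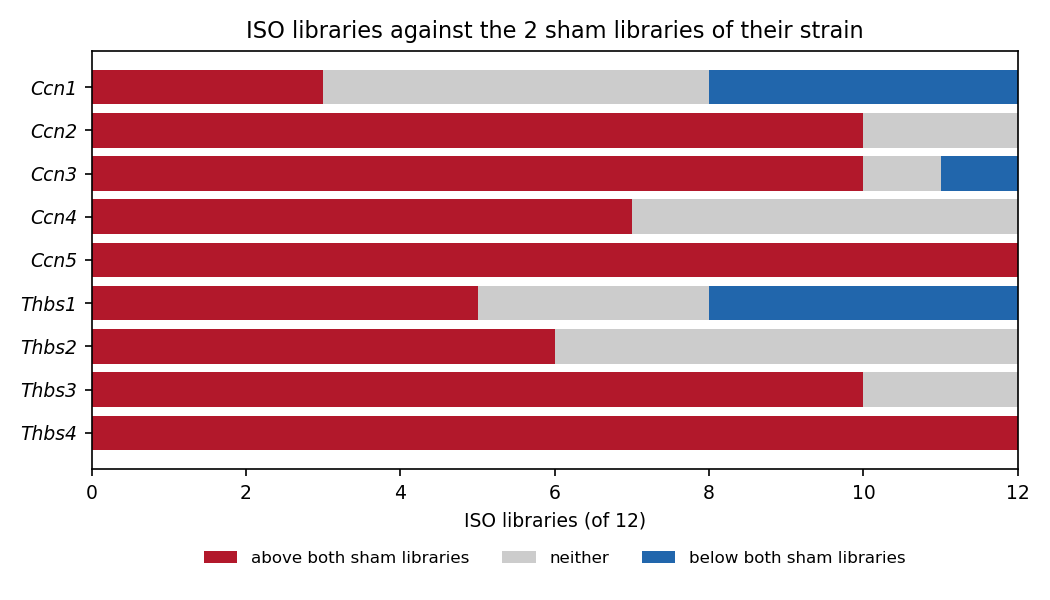
Number of the 12 ISO libraries (horizontal axis) in which each gene was above both sham libraries of its own strain (red), below both (blue) or neither (grey). Ccn5 and Thbs4 are red throughout, while Ccn1 and Thbs1 each have 4 libraries below.

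Within groups, a count of members whose 2 ISO libraries both lay above both sham libraries shows where these differences fall. It was 6 of 9 in C57BL/6 at day 14 (Ccn2, Ccn3, Ccn5, Thbs2, Thbs3, Thbs4), against 12% of genes tested. At day 21 in C57BL/6 it was 7 of 9, the same names with Ccn4, against 16.3% of genes, and Thbs1 lay below, as did 20.7% of genes. In C3H/HeJ it was 4 at day 14 (Ccn2, Ccn3, Ccn5, Thbs4; 19% of genes) and 5 at day 21 (Ccn2, Ccn5, Thbs2, Thbs3, Thbs4; 18.5%), where Ccn1 lay below with 16.6% of genes. In KK/HlJ it was 3 at day 14 (Ccn3, Ccn5, Thbs4; 12.8%) and 4 at day 21 (Ccn4, Ccn5, Thbs3, Thbs4; 14.4%). The comparisons of the 2 days share the sham libraries of a strain, so they are not independent of each other. In the test, 0 of 9 members passed in any of these 6 comparisons, where the share of genes passing was 0.0127% in C3H/HeJ at day 14, 0.019% in KK/HlJ at day 21 and 0% in the other 4. Averaged over both days, 0 of 9 passed in each strain, where 0.00634% of genes did in C3H/HeJ and 0% in the other two. At an unadjusted p under 0.05, 1 member was higher with ISO in C57BL/6 at day 14 (Ccn2, 0.311% of genes). In C3H/HeJ there were 2 (Ccn2 and Ccn5, 2.23%) and in KK/HlJ 3 (Ccn4, Ccn5 and Thbs4, 3.04%). Day 21 members were, in the same order, 1 (Ccn5, 0.419% of genes), 2 (Ccn2 and Ccn5, 3.32%) and 3 (Ccn4, Ccn5 and Thbs4, 3.07%). None was lower. The p of Ccn4 in KK/HlJ is set against sham libraries that both held 0 counts.

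**Figure D3:**
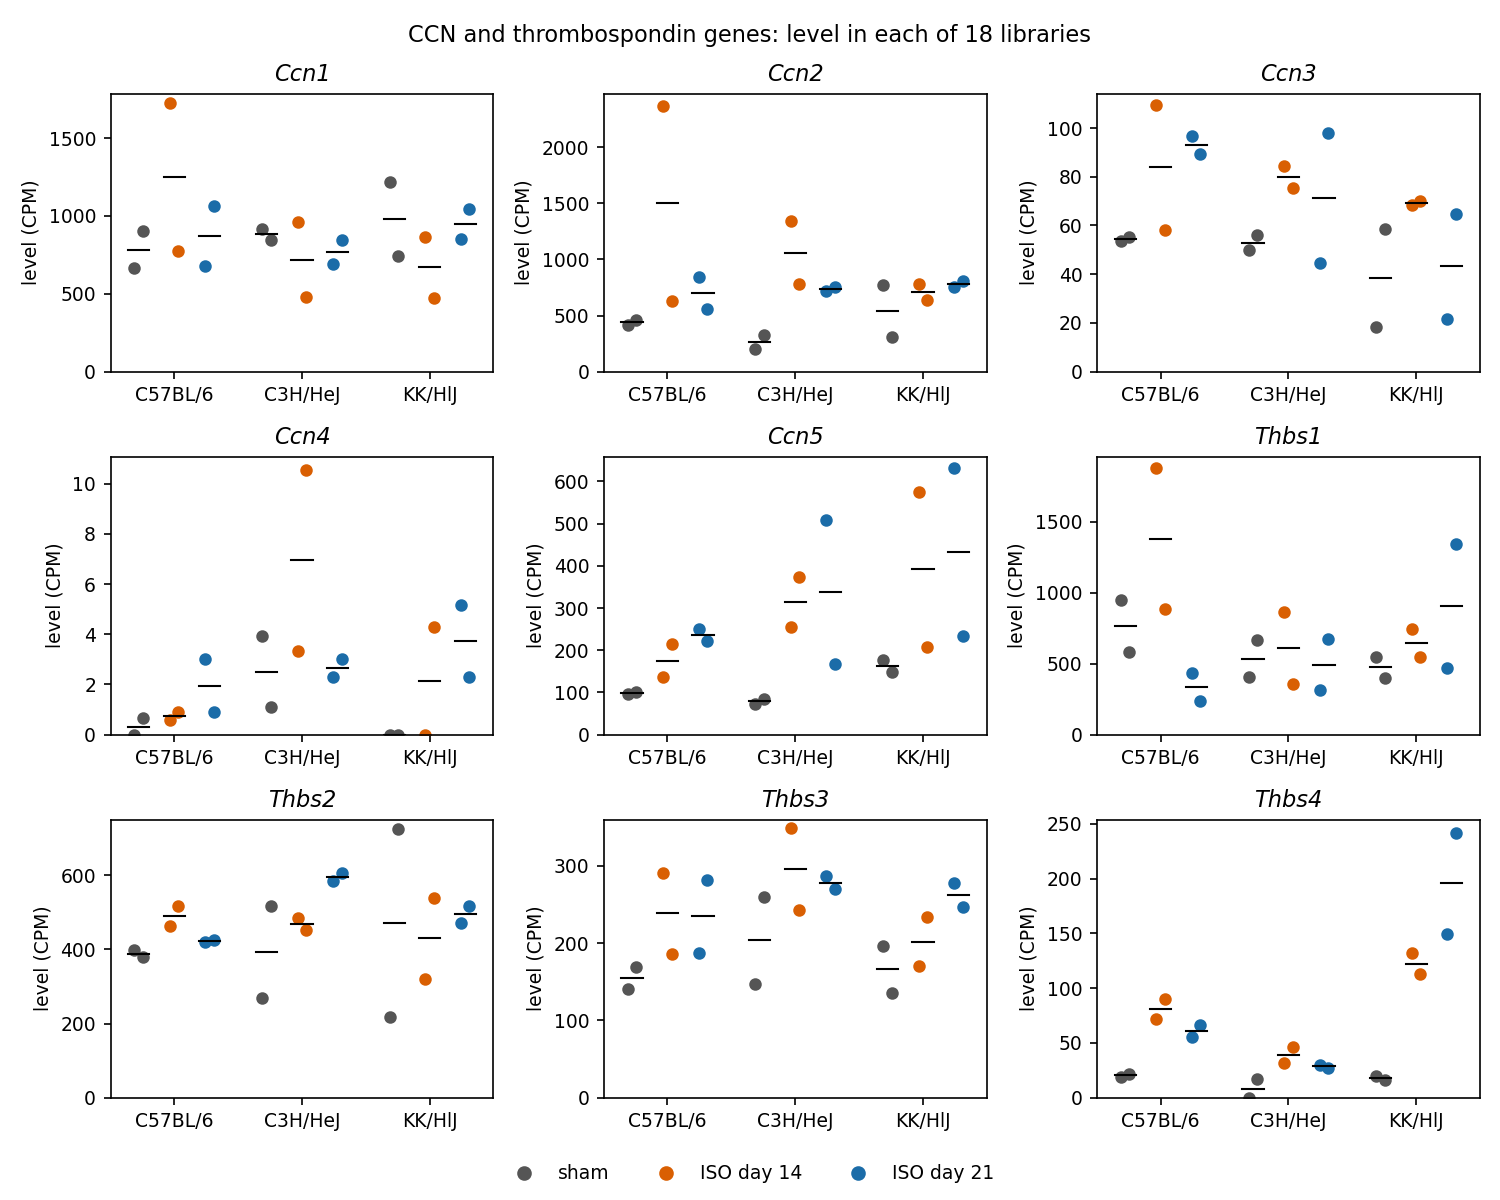
Level (CPM, linear axes from 0) of the 9 genes in each of the 18 libraries, by strain, with sham in grey, ISO day 14 in orange and ISO day 21 in blue; black lines are means of 2 libraries. Thbs4 and Ccn5 are above sham in each strain, and C57BL/6 ISO day 14 replicate 1 is the highest library for Ccn1, Ccn2, Ccn3 and Thbs1.

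Among the CCN genes, Ccn2 (ENSMUSG00000019997, chr10:24595442-24598683, plus strand), the profibrotic connective tissue growth factor, was higher with ISO in C57BL/6 and C3H/HeJ. C57BL/6 libraries had 416 and 462 CPM with saline, 2368 and 630 CPM after 14 days of ISO, and 846 and 558 CPM after 21 days. In C3H/HeJ the values were 202 and 330 CPM in sham, 1340 and 777 CPM at day 14, and 720 and 750 CPM at day 21. In KK/HlJ they were 770 and 309 CPM in sham, 778 and 641 CPM at day 14, and 752 and 810 CPM at day 21. ISO and sham did not overlap in the first 2 strains, whereas in KK/HlJ the sham libraries differed so much that 1 of them, a divergent library, reached the ISO level. The log2 fold change was 1.77 ± 0.519 (SE) at day 14 and 0.68 ± 0.506 at day 21 in C57BL/6, 1.99 ± 0.523 and 1.46 ± 0.515 in C3H/HeJ, and 0.4 ± 0.505 and 0.53 ± 0.505 among KK/HlJ libraries. Averaged over strains it was 1.39 ± 0.296 at day 14 (adjusted p = 0.144) and 0.89 ± 0.293 at day 21 (adjusted p = 0.91), and over both days 1.14 ± 0.266, a 2.2-fold difference (adjusted p = 0.174). Without the 4 divergent libraries this mean was 1.29 (adjusted p = 0.164), and the values in KK/HlJ became 1.04 at day 14 and 1.39 at day 21. Without C57BL/6 ISO day 14 replicate 1 the C57BL/6 day 14 value dropped to 0.53, without C57BL/6 ISO day 14 replicate 2 the mean over strains and days passed (1.25, adjusted p = 0.02), and the KK/HlJ day 14 value became -0.12 once sham replicate 2 of that strain was left out. Gm15270, an antisense transcript that overlaps Ccn2, stayed at or under 7.78 CPM in each library.

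Ccn5 (ENSMUSG00000027656, chr2:163820861-163833146, plus strand) is the family member that lacks the C-terminal cystine-knot domain and is known as an antagonist of Ccn2 in the heart. In C57BL/6 it measured 96.3 and 101 CPM in sham, 136 and 214 CPM at day 14, and 250 and 221 CPM at day 21. In C3H/HeJ it measured 73.3 and 85.5 CPM in sham, 254 and 374 CPM at day 14, and 509 and 166 CPM at day 21. KK/HlJ started higher, with 176 and 149 CPM in sham, and had 576 and 208 CPM at day 14 and 631 and 233 CPM at day 21. No ISO library overlapped the sham libraries of its strain, and the highest ISO values in KK/HlJ, 576 and 631 CPM, were both from divergent libraries. The highest in C3H/HeJ, 509 CPM, was in the library with the highest macrophage, endothelial and cardiomyocyte sums, whose part was not tested. The log2 fold change was 0.83 ± 0.535 (SE) at day 14 and 1.26 ± 0.539 at day 21 in C57BL/6, 1.98 ± 0.551 and 2.09 ± 0.553 in C3H/HeJ, and 1.27 ± 0.54 and 1.41 ± 0.541 among KK/HlJ libraries. Over strains it was 1.36 ± 0.312 at day 14 (adjusted p = 0.201) and 1.59 ± 0.314 at day 21 (adjusted p = 0.16). The C3H/HeJ day 21 value was 1.07 without ISO day 21 replicate 1 and 2.68 without replicate 2. The mean over strains and days was 1.47 ± 0.285, a 2.78-fold difference (adjusted p = 0.0813; higher in 12 of 12 libraries). Without the 4 divergent libraries the mean was 1.18 (adjusted p = 0.0718), and the KK/HlJ values were 0.46 at day 14 and 0.64 at day 21. Leaving out C3H/HeJ ISO day 21 replicate 2, KK/HlJ ISO day 14 replicate 2 or KK/HlJ ISO day 21 replicate 2, the lower library of its group each time, gave adjusted p of 0.00998, 0.0118 and 0.0111.

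Ccn1 (ENSMUSG00000028195, chr3:145646976-145649981, minus strand), which supports cell adhesion and is induced within minutes of stimulation, showed no common direction. Sham libraries had 665 and 902 CPM in C57BL/6, 919 and 849 CPM in C3H/HeJ, and 1218 and 743 CPM in KK/HlJ. Day 14 libraries had 1724 and 778 CPM, 960 and 477 CPM, and 866 and 473 CPM in the same order of strains. Day 21 libraries had 679 and 1064 CPM, 694 and 846 CPM, and 850 and 1047 CPM. ISO and sham overlapped except in C3H/HeJ at day 21, where both ISO libraries lay below sham, narrowly for replicate 2 (846 against 849 CPM). The mean log2 fold change over strains and days was -0.04 ± 0.204 (SE; adjusted p = 1), and without the 4 divergent libraries it was 0.05. A list of 20 immediate-early genes summed to a median of 24800 CPM in sham (15430 to 28490) and 20870 CPM in ISO (13610 to 27380), and its part in the Ccn1 values was not tested.

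Ccn3 (ENSMUSG00000037362, chr15:54745702-54754039, plus strand), described as a counterweight to Ccn2 in fibrosis models, ran between 18.3 and 109.6 CPM. In C57BL/6 it had 53.5 and 55.3 CPM in sham, 109.6 and 58.2 CPM at day 14, and 96.6 and 89.4 CPM at day 21. In C3H/HeJ it had 49.8 and 56.2 CPM in sham, 84.2 and 75.2 CPM at day 14, and 44.7 and 97.8 CPM at day 21. In KK/HlJ it had 18.3 and 58.4 CPM in sham, 68.5 and 70.0 CPM at day 14, and 21.5 and 64.9 CPM at day 21. All 6 day 14 libraries lay above their sham libraries, as did 0.692% of genes, and at day 21 4 of 6 did. Its lowest values, 18.3 and 21.5 CPM, were in divergent libraries of KK/HlJ. The mean log2 fold change was 0.69 ± 0.306 (SE) at day 14 (adjusted p = 0.878), 0.46 ± 0.305 at day 21 (adjusted p = 0.975), and 0.57 ± 0.27 over both (adjusted p = 0.74), or 0.45 without the 4 divergent libraries (adjusted p = 0.448).

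Ccn4 (ENSMUSG00000005124, chr15:66891320-66923201, plus strand), known as a Wnt-induced gene, had low counts, from 0 to 110 in a library. C57BL/6 libraries held 0 and 17 counts with saline, 9 and 14 counts after 14 days of ISO, and 34 and 13 counts after 21 days. C3H/HeJ libraries held 50 and 19 counts, then 82 and 110 counts, then 25 and 65 counts, in the same order. KK/HlJ libraries held 0 and 0 counts, then 0 and 104 counts, then 104 and 19 counts. Sham of KK/HlJ held no count among 22824504, and 3 counts over the group, the floor that 0 counts allow, would be 0.131 CPM. Pooled over 2 libraries, KK/HlJ ISO had 3.35 CPM at day 14, at least 25.5-fold higher than that floor, and 4.32 CPM at day 21, at least 32.9-fold higher. All counts of KK/HlJ at day 14 came from replicate 2, and floors cover counting error only. A fitted fold change is not given where a group is at 0; the adjusted p of the mean over strains and days was 0.673.

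Among the thrombospondins, Thbs4 (ENSMUSG00000021702, chr13:92751590-92794818, minus strand), a pentameric thrombospondin induced in stressed heart and in tendon, had the largest fold. C57BL/6 had 19.1 and 22.0 CPM in sham, 71.8 and 90.4 CPM at day 14, and 55.6 and 66.8 CPM at day 21. C3H/HeJ had 0 and 16.7 CPM in sham, 31.9 and 46.6 CPM at day 14, and 29.8 and 27.2 CPM at day 21. KK/HlJ had 19.4 and 15.7 CPM in sham, 132 and 112.9 CPM at day 14, and 149.5 and 241.8 CPM at day 21. ISO and sham did not overlap in any of the 6 comparisons. The ISO levels were highest in KK/HlJ and lowest in C3H/HeJ, but levels with ISO were not tested between strains. C3H/HeJ sham replicate 1, a divergent library, held 0 counts where 3 counts would be 0.236 CPM, a floor that covers counting error only. Of the 15762 genes tested, 3832 were at 0 in that library and 1775 in C3H/HeJ sham replicate 2. Over all libraries the number at 0 ran from 1029 to 4918. The part of such zeros in the Thbs4 values was not tested. The mean log2 fold change over strains and days was 2.3 ± 0.636 (SE), a 4.93-fold difference (adjusted p = 0.437; higher in 12 of 12 libraries). It was 2.33 ± 0.685 at day 14 (adjusted p = 0.642) and 2.27 ± 0.684 at day 21 (adjusted p = 0.91).

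The test for Thbs4 depended on both C3H/HeJ sham libraries and on the method. With all 18 libraries the main test and limma voom did not call its mean over strains and days, while DESeq2 did (2.325, adjusted p = 0.0336). Without C3H/HeJ sham replicate 1 the mean over strains and days was 1.97 with an adjusted p of 0.000378, and without the 4 divergent libraries it was 2.06 with an adjusted p of 0.000156. Without C3H/HeJ sham replicate 2, which leaves only the library at 0, the fitted value was 5.65 (adjusted p = 9.35e-08) and depends on that 0. By strain the log2 fold change was 1.98 ± 1.17 (SE) at day 14 and 1.58 ± 1.15 at day 21 in C57BL/6, and 2.8 ± 1.21 and 3.48 ± 1.24 in KK/HlJ. In C3H/HeJ it was 2.22 ± 1.19 and 1.76 ± 1.17 with both sham libraries, and 1.24 and 0.79 without the 4 divergent libraries. The 2 KK/HlJ comparisons passed without those libraries, at 2.83 (adjusted p = 0.0107) at day 14 and 3.94 (adjusted p = 0.00089) at day 21, each then resting on 1 library a group and the spread of the other groups. The ISO response at day 21 was 1.9 ± 1.61 larger on the log2 scale in KK/HlJ than in C57BL/6 (adjusted p = 0.858) and 1.72 ± 1.62 larger than in C3H/HeJ (adjusted p = 1), so a strain difference in response was not shown. These differences were 2.36 (adjusted p = 0.12) and 3.15 (adjusted p = 0.0649) without the 4 divergent libraries. The second of them turned to -8.37 without C3H/HeJ sham replicate 2 (adjusted p = 0.00815), where the library at 0 alone stands for sham, and to -1.58 with limma voom (adjusted p = 1). Tendon and chondrocyte-like markers summed to a median of 91 CPM in sham (56.8 to 233) and 115.5 CPM in ISO (62 to 174.6). Sox9 (44.7 to 199 CPM) and Chad (8.47 to 51.6 CPM) were present in all 18 libraries, Scx had a median of 1.22 CPM in sham and 2.96 CPM in ISO, and Tnmd was at 0 in 9 libraries and Mkx in 14. Their part in the Thbs4 values was not tested.

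**Figure D4:**
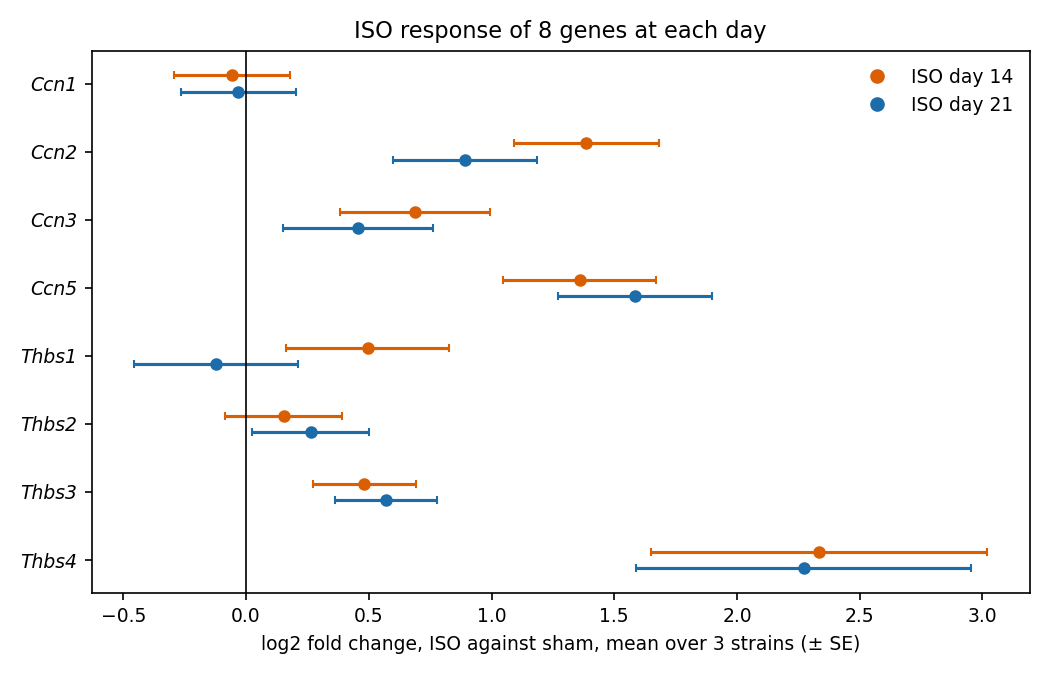
Log2 fold change of ISO against sham, averaged over the 3 strains, with its SE, at day 14 (orange) and day 21 (blue) for 8 genes; Ccn4 is left out because a sham group had no counts. Ccn2, Ccn5 and Thbs4 lie farthest from 0 at both days, with the widest errors for Thbs4.

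Thbs1 (ENSMUSG00000040152, chr2:118111876-118127133, plus strand), the trimeric thrombospondin that activates latent TGF-beta, had lower values at day 21 than at day 14 in C57BL/6. There it had 949 and 586 CPM in sham, 1878 and 885 CPM at day 14, and 435 and 238 CPM at day 21. The day 21 libraries lay below the sham and day 14 libraries, without overlap. C3H/HeJ had 404 and 665 CPM in sham, 867 and 354 CPM at day 14, and 314 and 675 CPM at day 21. KK/HlJ had 548 and 402 CPM in sham, 748 and 546 CPM at day 14, and 472 and 1345 CPM at day 21. In these 2 strains ISO overlapped sham at both days. Day 21 against day 14 in C57BL/6 gave a log2 fold change of -2.04 ± 0.599 (SE; unadjusted p = 0.00413, adjusted p = 0.903), which was -1.39 without C57BL/6 ISO day 14 replicate 1. The fit of only those 2 groups called it (adjusted p = 0.000184), as it did 0.388% of genes. The ISO response at day 21 was 2.12 ± 0.824 larger on the log2 scale in KK/HlJ than in C57BL/6 (unadjusted p = 0.0215, adjusted p = 0.748) and did not pass, where 6.45% of genes had an unadjusted p under 0.05. Without KK/HlJ ISO day 21 replicate 2 it was 1.18, and without the 4 divergent libraries 2.92 (adjusted p = 0.548). Averaged over strains, Thbs1 differed from sham by 0.5 ± 0.333 at day 14 (adjusted p = 0.962) and -0.12 ± 0.333 at day 21 (adjusted p = 1). Over both days it differed by 0.19 ± 0.29 (adjusted p = 1), or 0.22 without the 4 divergent libraries. Platelets store thrombospondin 1; the 5 platelet markers summed to 6.57 to 19.7 CPM in sham and 3.06 to 33.6 CPM in ISO. Pf4 (0.97 to 20.1 CPM) and Itga2b (0.82 to 13.5 CPM) were present in all 18 libraries, while Ppbp was at 0 in 15, Gp9 in 16 and Gp1ba in 17. Their part in the Thbs1 values was not tested. The antisense Gm29233 that overlaps Thbs1 stayed at or under 2.73 CPM.

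Thbs2 (ENSMUSG00000023885, chr17:14665500-14694235, minus strand), a trimeric relative involved in collagen fibril assembly, stood at a similar level in most libraries. It had 397 and 379 CPM in sham, 463 and 518 CPM at day 14, and 419 and 425 CPM at day 21 in C57BL/6. In C3H/HeJ it had 269 and 518 CPM in sham, 485 and 452 CPM at day 14, and 584 and 606 CPM at day 21. In KK/HlJ it had 217 and 725 CPM in sham, 320 and 539 CPM at day 14, and 471 and 517 CPM at day 21. Its lowest 3 values were in divergent libraries. ISO lay above sham in both C57BL/6 comparisons and in C3H/HeJ at day 21, and the mean over strains and days was 0.21 ± 0.209 on the log2 scale (SE; adjusted p = 1). Without the 4 divergent libraries that mean was -0.06.

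Thbs3 (ENSMUSG00000028047, chr3:89215180-89226837, plus strand), a pentameric thrombospondin, overlaps the protein-coding gene Mtx1 on the opposite strand. Since the strand setting of the counting is not given in the sources used here, reads of the 2 genes may have been shared, and Thbs3 is uncertain for that reason. It had 141 and 168 CPM in sham, 291 and 186 CPM at day 14, and 188 and 281 CPM at day 21 in C57BL/6. In C3H/HeJ it had 148 and 260 CPM in sham, 349 and 242 CPM at day 14, and 287 and 270 CPM at day 21. In KK/HlJ it had 196 and 136 CPM in sham, 170 and 233 CPM at day 14, and 277 and 246 CPM at day 21. All 6 day 21 libraries lay above their sham libraries, as did 0.285% of genes, and at day 14 the groups overlapped in C3H/HeJ and KK/HlJ. The mean over strains and days was 0.53 ± 0.185 on the log2 scale (SE; adjusted p = 0.548), and 0.53 again without the 4 divergent libraries (adjusted p = 0.229). Mtx1 itself had a median of 51.2 CPM in sham and 32.9 CPM with ISO, a log2 fold change of -0.49 ± 0.247 (adjusted p = 0.763), opposite in sign to Thbs3.

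At day 14 over strains, 0 of 9 members passed where 0.0381% of genes tested did, and at day 21, 0 of 9 where 0.0444% did. At an unadjusted p under 0.05, 6 were higher at day 14 (3.12% of genes) and 5 at day 21 (2.94%). For Ccn2, Ccn5 and Thbs4 the difference between the 2 days over strains was -0.49 ± 0.292, 0.23 ± 0.307 and -0.06 ± 0.65 on the log2 scale (SE; adjusted p = 1 for each). No gene of any kind passed in the 4 comparisons of day 21 with day 14, so the percentage called was 0 in each, and 2 members had an unadjusted p under 0.05, Thbs1 and Ccn2 in C57BL/6, where 3.44% of genes did. Ccn2 there gave -1.09 ± 0.51 (unadjusted p = 0.0469, adjusted p = 0.903) and 0.16 without C57BL/6 ISO day 14 replicate 1, so that library decided its direction.

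Between sham libraries of the strains, 0 of 9 members passed, where 0.102% of genes tested passed for C3H/HeJ against C57BL/6, 0.0508% for KK/HlJ against C57BL/6 and 0.152% for KK/HlJ against C3H/HeJ. Ccn5 was 1.03 ± 0.537 higher on the log2 scale in KK/HlJ than in C3H/HeJ sham (unadjusted p = 0.072, adjusted p = 0.734). Ccn4 had the only unadjusted p under 0.05 (0.0278, adjusted p = 0.723; 6.33% of genes in KK/HlJ against C3H/HeJ), with 50 and 19 counts in C3H/HeJ and none in KK/HlJ. A single build, mm10, served for the reads of every strain, and the part of sequence differences between strains in these levels was not tested.

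For the difference in ISO response between strains, no gene passed in any of the 6 comparisons (0% called in each), members included. Apart from Thbs1 above and from Ccn4, 2 members had an unadjusted p under 0.05. The Ccn2 response at day 14 was -1.6 ± 0.717 in KK/HlJ relative to C3H/HeJ (unadjusted p = 0.0402, adjusted p = 1), where 3.32% of genes reached such a p, and it was -0.65 without the 4 divergent libraries. The Ccn1 response at day 14 was -1.23 ± 0.58 in KK/HlJ relative to C57BL/6 (unadjusted p = 0.0462, adjusted p = 1), where 3.72% of genes did, and -0.57 without C57BL/6 ISO day 14 replicate 1. A p that misses the threshold does not show that the strains respond alike: the SE of the difference ran from 0.713 to 0.717 for Ccn2 and from 0.815 to 0.824 for Thbs1.

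Genes that act with these families were read in the mean over strains and days. Of 14 other matricellular proteins and family relatives 13 were tested, and 1 passed: Postn, periostin of activated fibroblasts, rose from a mean of 337 CPM in sham to 1570 CPM with ISO, by 2.17 ± 0.215 on the log2 scale (adjusted p = 1.49e-05; higher in 12 of 12 libraries). Comp, which is thrombospondin 5, averaged 149 CPM in sham and 337 CPM with ISO (1.15 ± 0.236, adjusted p = 0.0813; above sham in 12 of 12 libraries). Tnc, tenascin C of wounds, averaged 11.7 and 41.5 CPM (1.88 ± 0.416, adjusted p = 0.109; 12 of 12), and it passed without the 4 divergent libraries (2.6, adjusted p = 0.000678). Sparc averaged 5720 and 7700 CPM (0.41 ± 0.148, adjusted p = 0.577). The median log2 fold change of this list was 0.27, against 0.03 over all genes tested.

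None of the 22 Hippo and YAP/TAZ genes passed, and their median was 0.26. Wwtr1, which encodes TAZ, averaged 84.4 CPM in sham and 130 CPM with ISO (0.63 ± 0.202, adjusted p = 0.461, above sham in 11 of 12 libraries). Lats1 averaged 19.3 and 30.2 CPM (0.7 ± 0.319, adjusted p = 0.724, above in 7 of 12 and below in 1). Ajuba averaged 19.9 and 12.6 CPM (-0.73 ± 0.361, adjusted p = 0.757, below in 8 of 12). None of the 19 TGF-beta genes passed, and their median was 0.37. Tgfb3, a ligand, averaged 193 and 265 CPM (0.45 ± 0.169, adjusted p = 0.602, above in 11 of 12). Smurf2, an inhibitor of receptor signalling, averaged 53.5 and 81.4 CPM (0.68 ± 0.209, adjusted p = 0.43, above in 9 of 12 and below in 3). Of 18 receptors of CCN proteins and thrombospondins 17 were tested and none passed, with a median of -0.04. Itgav, the integrin alpha V chain, averaged 74.8 and 98.7 CPM (0.49 ± 0.206, adjusted p = 0.678, above in 9 of 12 and below in 3). Cacna2d1, the thrombospondin-binding subunit of calcium channels, averaged 32.6 and 48 CPM (0.56 ± 0.251, adjusted p = 0.714). Notch1 was lower, at 49.6 and 35 CPM (-0.59 ± 0.272, adjusted p = 0.732). None of the 20 immediate-early genes passed, with a median of -0.15. Klf2, a transcription factor, averaged 1080 and 690 CPM (-0.67 ± 0.18, adjusted p = 0.278, below sham in 9 of 12 and above in 1). At an unadjusted p under 0.05, 2 Hippo genes, 3 TGF-beta genes, 2 receptors and 4 matricellular genes were higher, 1 receptor and 1 matricellular gene were lower, and 4 immediate-early genes were lower, where 3.21% of all genes tested were higher and 3.48% lower. These counts and medians describe the lists and test nothing about them.

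Over the 18 libraries, log2 CPM of Ccn2 correlated with that of Thbs4 at r = 0.636 and of Thbs3 at r = 0.636, and Ccn5 with Thbs4 at r = 0.613. The lowest correlation among the 36 pairs was -0.326, between Ccn1 and Ccn4. The points share library, depth and treatment, so these are descriptions. The gene most like Ccn5 by Pearson r was Cpeb1 (0.862), with Comp at the third place (0.803). Most like Ccn2 was Slc39a6 (0.872), most like Ccn4 Ddah1 (0.861), with Nox4, an oxidase, at the third place (0.798), and most like Thbs4 Enc1 (0.912). Ccn1 was most like Vasn (0.744), Ccn3 like Snapc5 (0.885), Thbs1 like Gfpt2 (0.826), Thbs2 like Erlin2 (0.893) and Thbs3 like Sfrp4 (0.803). By Spearman rho the 3 genes most like Ccn1, Ccn2, Ccn3, Thbs2, Thbs3 and Thbs4 were all replaced, so these names depend on the measure.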

How the data were processed

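Per the labels' protocols, Thy1+ cells were sorted into a lysis reagent, and stranded mRNA libraries were sequenced single-end on an Illumina HiSeq. Per the submitters' processing notes, FastQC, STAR 2.5.3a, edgeR and mm10 were used. Which counter and strand setting were used is not stated there. The authors deposited unnormalized read counts for each Ensembl gene. Identifiers were matched to GENCODE M21 (53237 of 53342; the other 105 hold 0.00159% of reads), which gave symbols and mm10 positions.

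A single model of all 18 libraries, with group (9 levels) as its factor, was used (edgeR 4.0.16 in R 4.3.3, quasi-likelihood test, TMM scaling, robust, default filter), leaving 15762 genes and 9 residual degrees of freedom. p-values were Benjamini-Hochberg adjusted over all genes tested, and 25 comparisons were made. Standard errors come from the F statistic of each comparison. Levels in CPM use effective library sizes; log2 CPM used a prior count of 2. Depth (7230741 to 26280685 counts) sets a floor of 3 counts at 0.114 to 0.415 CPM; it covers counting error only. The 2 libraries of each group differed by more than counting noise (chi-square per degree of freedom 60.7 to 161). The fit was tested on simulated counts with the same spread for every gene and library. No divergent library was simulated, so that test does not cover such libraries.

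Of each list, genes that passed are named and otherwise the lowest p, up to 4, with fewer named in some lists. Likeness took the 3 highest Pearson r among named genes with a mean of at least 5 CPM, and not all of them are printed. Alternatives were DESeq2 1.42.0, limma 3.58.1 voom with quality weights, RLE scaling, no filter, a mean of at least 5 CPM, a replicate block, only the groups compared, no divergent libraries, and each library left out. The members and lists were chosen with earlier results of these data known.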

Additional observations from a re-analysis of the deposited data

How the results depend on the processing

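The main test called 0 of the 9 genes in all 25 comparisons. So did RLE scaling, limma voom and the replicate block, and a mean of at least 5 CPM called 0 of the 8 it tested, since Ccn4 is below that level. The share of all genes called in the same fit is given in parentheses below. For DESeq2 it is a share of the genes given an adjusted p. These numbered from 5983 in C3H/HeJ at day 21 to 13011 in the day 14 mean, so its shares have unlike bases. DESeq2 called 3 members in the mean over strains and days (0.763%), 2 in the day 14 mean (0.576%), 1 in the day 21 mean (0.363%), and in C3H/HeJ 1 at day 14 (Ccn2; 0.218%), 1 at day 21 (Ccn5; 0.451%) and 2 over both days (0.492%). Without a filter, where all genes shared 1 trend of spread (infinite prior degrees of freedom, against a median of 13.1), 3 were called in the means over strains at day 14 (0.286%), day 21 (0.21%) and both (0.37%). It called 3, 2 and 3 in C3H/HeJ at day 14, day 21 and both (0.0878%, 0.0993%, 0.195%), 1, 1 and 2 in KK/HlJ (0.157%, 0.157%, 0.34%), and 1 each in C57BL/6 at day 14 (0.0153%), day 21 against day 14 in C57BL/6 (0.0725%) and the KK/HlJ minus C57BL/6 response at day 21 (0.145%). Without the 4 divergent libraries 1 gene, Thbs4, was called in the means at day 14 (0.597%), day 21 (0.495%) and both (0.895%), and in KK/HlJ likewise (0.387%, 0.355%, 0.52%). Fits of only the groups compared called 1 in KK/HlJ at day 14, day 21 and both (Thbs4; 0.0737%, 0.0528%, 0.071%), 1 in C3H/HeJ at day 21 (Ccn5; 0.113%) and 1 in day 21 against day 14 in C57BL/6 (Thbs1; 0.388%).

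Leaving out a library leaves 1 library in its group, so the members called are not counted for these fits. Some members passed in some of them, in the means over strains, in C3H/HeJ and in KK/HlJ. Without C3H/HeJ sham replicate 2, Thbs4 also passed in comparisons of strains that involve C3H/HeJ sham. In the day 14 mean the log2 fold change ranged from 0.96 to 1.65 for Ccn2, 1.06 to 1.55 for Ccn5 and 2 to 5.68 for Thbs4. In the day 21 mean it ranged from 0.72 to 1.16, 1.25 to 1.78 and 1.94 to 5.63 in the same order. The day 14 mean of Ccn2 passed without C57BL/6 ISO day 14 replicate 2 (adjusted p = 0.011), KK/HlJ ISO day 14 replicate 2 (0.0403) or, among sham, KK/HlJ replicate 1 (0.043). The day 21 mean of Ccn5 passed without C3H/HeJ ISO day 21 replicate 2 (0.0158), KK/HlJ ISO day 14 replicate 1 (0.0416) or 2 (0.0435), or KK/HlJ ISO day 21 replicate 2 (0.00846), and its day 14 mean without KK/HlJ ISO day 14 replicate 2 (0.0102), a fit that called 1.48% of all genes.

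Some directions turned. Without the 4 divergent libraries, Ccn1 became 0.17 at day 21 and 0.0495 over both days, Thbs1 0.0465 at day 21, and Thbs2 -0.0785, -0.0509 and -0.0647 at day 14, day 21 and both. Leaving out single libraries, Ccn1 ranged from -0.297 to 0.0964 at day 14, -0.154 to 0.101 at day 21 and -0.167 to 0.0852 over both, Thbs1 from -0.437 to 0.0641 at day 21, Thbs2 from -0.0588 to 0.526 at day 14 and -0.0011 to 0.58 over both, Ccn2 from -0.12 to 1.18 in KK/HlJ at day 14 and from -1.75 to 0.16 between days in C57BL/6, and Thbs4 from -8.37 to 2.68 in the KK/HlJ minus C3H/HeJ response at day 21, which was -1.58 with limma voom. Ccn2, Ccn5 and Thbs4 kept a positive mean over strains and days in every fit that was run, from 0.92 to 1.41, 1.18 to 1.57 and 1.97 to 5.65.

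Whether the replicate number marks a batch was not settled, and all 4 divergent libraries are replicate 1. Between groups of the same strain, same-numbered libraries correlated at -0.102 to 0.163 in their deviations from group means. The replicate block changed no call of a member. With it the Ccn5 mean was 1.44 (adjusted p = 0.0771), the Ccn2 mean 1.11 (0.124) and the Thbs4 mean 2.36 (0.455). The block moved the count of all genes called over strains and days from 9 to 15. That count was 97 with DESeq2, 97 without a filter, 5 with a mean of at least 5 CPM and 141 without the 4 divergent libraries. The cause of these differences was not tested. Counts of Ccn4 did not exceed 110 in a library. The libraries where it was at 0 had total counts from 7230741 to 25356498, and the part of depth was not tested.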
